A study of Homo sapiens with 18 samples.

Results

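MCF10A, an immortalised but non-malignant line of human breast epithelial cells, was followed from 3 to 12 h after plating in 2D culture. The comparison sets the 3 libraries of 2D timepoint 2 (12 h) against the 3 libraries of 2D timepoint 1 (3 h), which are 6 of the 18 libraries of the series, chosen by culture, timepoint and replicate number in the labels. In both groups cells had been detached with trypsin and seeded sparsely on soft polyacrylamide gels coated with Matrigel, a basement membrane extract rich in laminin. Cells that had not attached were washed off and the rest received fresh growth medium with horse serum, EGF, insulin, cholera toxin and hydrocortisone, so both groups share these agents and differ by harvest time alone. Cells were harvested 3, 12 and 21 h after plating according to the labels, which number the timepoints 1 to 3; the hours were assigned by rank. The other groups used here are 2D timepoint 3 (21 h) and 3D timepoints 2 and 1, in which the same medium carried 2% Matrigel that sets around the cells. All libraries come from 1 cell line, and the labels do not say whether replicates were separate cultures, so p-values measure the spread between these libraries, which may be partly technical.

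Detachment, re-adhesion and a change to medium with serum and growth factors are known to switch on immediate early genes, transcription factors and feedback regulators that are induced within minutes through MAP kinases and serum response factor (SRF) and then decay. Attachment also sets actin tension, which is read out by SRF and by the YAP and TAZ coactivators. Basal breast epithelial cells such as MCF10A make TP63 and basal keratins, can switch on squamous genes, and divide under EGF. The endoplasmic reticulum (ER) stress response has 3 known arms: PERK with its effector ATF4, ATF6, and IRE1 with XBP1.

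Levels are given as CPM, the deposited counts scaled to library size by edgeR, with the 3 libraries in the order of replicates 1, 2 and 3. The counts appear to include a read once for every transcript it overlaps, so CPM is compared between libraries for 1 gene and not between genes. Counting intervals are left out for the same reason. Read totals in the file headers were 12.67 to 14.48 M reads in the 12 h libraries and 10.54 to 17.75 M reads in the 3 h libraries, and 23548 to 24140 and 23602 to 24584 genes had at least 1 count. The cells matched their label in that epithelial markers were present: the summed level of 12 breast epithelial markers was 6376 to 8487 CPM at 12 h and 7700.2 to 14749.7 CPM at 3 h, with none at 0. Of these 2 rose and 3 fell (1 and 0 without the block), with a median log2 fold change of -0.48. Of 8 leukocyte markers 4 were at 0 in all 6 libraries, among them PTPRC, CD3E and HLA-DRA, and the list summed to 24.7 to 36.4 CPM at 12 h and 17.5 to 20.4 CPM at 3 h. Its member CD68, a lysosomal protein that epithelial cells also make, had 18.0, 18.6 and 14.3 CPM at 12 h and 6.57, 6.13 and 5.74 CPM at 3 h, and rose (log2 1.45 ± 0.14, adjusted p = 2.25e-05). Fibroblast markers summed to 152.5 to 241.7 CPM at 12 h and 134.3 to 155.4 CPM at 3 h, with COL3A1 at 0, and 0 of the 4 tested passed in edgeR's test (3 at an unadjusted p under 0.05, and 2 with DESeq2). Endothelial markers summed to 3.82 to 4.58 CPM at 12 h and 4.46 to 7.17 CPM at 3 h, and luminal milk and hormone markers to 2.58 to 3.22 CPM at 12 h and 2.28 to 3.25 CPM at 3 h. Of 4 endothelial markers tested 1 fell (0 without the block). The part of these lists in the results was not tested.

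Between 3 and 12 h in 2D culture, 2539 of 18592 genes tested changed (13.7%), of which 1226 rose (6.59%) and 1313 fell (7.06%), in edgeR's quasi-likelihood test with replicate number as a block and a Benjamini-Hochberg adjusted p under 0.05. The fold was at least 2 for 439 of the genes that rose and 505 of those that fell. Of the 2539, 2529 moved the same way in all 3 same-numbered pairs, and 2293 had CPM ranges that did not overlap, against 4522 of all genes tested (24.3%). Without the block 1092 genes passed (5.87%), 494 higher (2.66%) and 598 lower (3.22%), and all 1092 were also called with the block in the same direction. Libraries of the same number share a date in the labels, but they deviated together only weakly between these groups, with correlations of 0.30, -0.04 and 0.02 for numbers 1, 2 and 3. Calls that were lost without the block are therefore named beside each gene. Leaving out 1 library left between 1488 and 2337 calls. It was 1639 without replicate 1 at 3 h, 1488 without replicate 1 at 12 h and 1654 without replicate 3 at 12 h. From 12 to 21 h, with the 2 libraries of 21 h that entered the fit, 7 genes passed (0.0377%).

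The genes that fell most included CYP1A1, LIF, SERPINB2, EGR3 and NR4A1, and those that rose most included SPRR1B, INSC, GPX2, TP73 and KRT15. The 12 named in each direction are the largest fold changes among genes that passed, moved the same way in all pairs, did not overlap between the groups and reached 2 CPM in the higher group. Their values are a description of what that rule picked. Here and below, the log2 value in parentheses is the log2 fold change at 12 h over 3 h with its standard error. CYP1A1 (chromosome 15, 74719542 to 74725528 of hg38), a cytochrome P450 that oxidises aromatic hydrocarbons, had 1.44, 1.11 and 1.65 CPM at 12 h and 150.1, 124 and 188 CPM at 3 h, the largest fall of the 24 (log2 -6.78 ± 0.49, adjusted p = 1.45e-06). SPRR1B (chromosome 1, 153031203 to 153032900), a cornified envelope precursor of squamous epithelia, had 4.53, 6.21 and 12.7 CPM at 12 h and 0.320, 0.438 and 1.74 CPM at 3 h, the largest rise (log2 3.46 ± 0.24, adjusted p = 1.12e-06). Replicate 3 was the highest library of SPRR1B in both groups. Of the 24, the calls of CMKLR2 (adjusted p = 0.0543) and COL6A3 (adjusted p = 0.0902) were lost without the block.

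**Figure D1:**
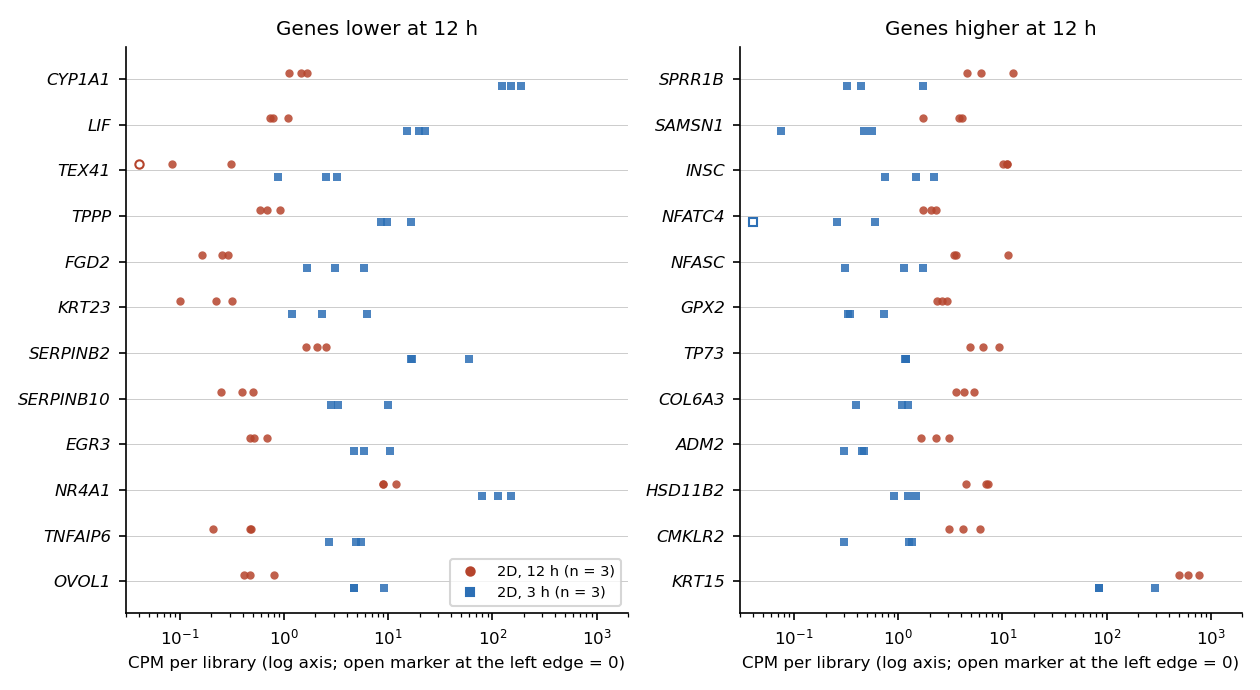
CPM in each library (log axis) of the 12 genes that fell most (left) and the 12 that rose most (right) between 3 and 12 h in 2D culture; circles are the 3 libraries at 12 h, squares the 3 libraries at 3 h, and open markers at the left edge stand for 0. CYP1A1 lay at 1.44, 1.11 and 1.65 CPM at 12 h, far below its 150.1, 124 and 188 CPM at 3 h, and in every gene shown the groups are apart because the choice required it.

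The other genes that fell most had varied roles. SERPINB2, an inhibitor of urokinase, had 2.05, 1.62 and 2.55 CPM at 12 h and 16.9, 16.6 and 59.0 CPM at 3 h (log2 -3.65 ± 0.36, adjusted p = 2.53e-05). Its neighbour in the same serpin family, SERPINB10, had 0.248, 0.390 and 0.498 CPM at 12 h and 2.81, 3.30 and 10.0 CPM at 3 h (log2 -3.64 ± 0.46, adjusted p = 0.000155). The 2 serpins overlap on the same strand, so their reads may be partly shared. Replicate 3 was the highest 3 h library in both. TNFAIP6, a hyaluronan-binding protein induced by inflammatory cytokines, had 0.484, 0.474 and 0.208 CPM at 12 h and 5.46, 4.92 and 2.69 CPM at 3 h (log2 -3.50 ± 0.29, adjusted p = 6.07e-06). FGD2, an exchange factor for the GTPase CDC42, had 0.161, 0.251 and 0.291 CPM at 12 h and 1.68, 3.05 and 5.86 CPM at 3 h (log2 -3.79 ± 0.46, adjusted p = 0.000120). TPPP, a protein that bundles microtubules, had 0.583, 0.919 and 0.692 CPM at 12 h and 8.48, 9.78 and 16.5 CPM at 3 h (log2 -3.98 ± 0.30, adjusted p = 1.95e-06). OVOL1, a zinc-finger repressor in epithelia that overlaps an antisense gene, had 0.409, 0.474 and 0.802 CPM at 12 h and 4.74, 4.73 and 9.17 CPM at 3 h (log2 -3.45 ± 0.25, adjusted p = 1.35e-06). KRT23, a type I keratin, had 0.0993, 0.223 and 0.318 CPM at 12 h and 2.29, 1.18 and 6.21 CPM at 3 h (log2 -3.71 ± 0.53, adjusted p = 0.000389). In each of these the highest 12 h library was below the lowest 3 h library. The long noncoding RNA TEX41 had 0, 0.306 and 0.0830 CPM at 12 h and 0.864, 3.20 and 2.53 CPM at 3 h, near the limit of detection at 12 h (log2 -4.10 ± 1.15, adjusted p = 0.0322). Its call was lost without replicate 2 or 3 at 3 h and without replicate 1 or 3 at 12 h.

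Among the genes that rose most, INSC, an adaptor that orients the mitotic spindle, had 10.1, 11.1 and 11.0 CPM at 12 h and 1.48, 0.741 and 2.23 CPM at 3 h (log2 2.83 ± 0.40, adjusted p = 0.000368). HSD11B2, which turns cortisol into inactive cortisone, had 6.90, 7.22 and 4.43 CPM at 12 h and 0.907, 1.46 and 1.25 CPM at 3 h (log2 2.37 ± 0.24, adjusted p = 2.81e-05). Both were low in every 3 h library. TP73, a member of the p53 family, had 4.90, 9.37 and 6.49 CPM at 12 h and 1.18, 1.16 and 1.19 CPM at 3 h (log2 2.48 ± 0.21, adjusted p = 8.17e-06). GPX2, a glutathione peroxidase of epithelia, had 2.61, 2.34 and 2.93 CPM at 12 h and 0.331, 0.724 and 0.346 CPM at 3 h (log2 2.50 ± 0.37, adjusted p = 0.000456). NFASC, a neural cell adhesion molecule, had 3.59, 3.40 and 11.4 CPM at 12 h and 0.309, 1.14 and 1.73 CPM at 3 h (log2 2.57 ± 0.37, adjusted p = 0.000456), with replicate 3 well above the others at 12 h. SAMSN1, an adaptor protein described in lymphocytes, had 3.81, 4.08 and 1.74 CPM at 12 h and 0.555, 0.471 and 0.0752 CPM at 3 h (log2 3.20 ± 0.40, adjusted p = 0.000137). CMKLR2, a receptor for chemerin, had 4.17, 6.16 and 3.06 CPM at 12 h and 1.34, 1.26 and 0.301 CPM at 3 h. COL6A3, a chain of collagen VI, had 4.32, 5.35 and 3.61 CPM at 12 h and 1.09, 1.23 and 0.391 CPM at 3 h. In both, replicate 3 was the lowest library of each group, and the call of COL6A3 was also lost without replicate 1 or 3 at 3 h or replicate 3 at 12 h. NFATC4, a calcium-regulated transcription factor, had 1.71, 2.05 and 2.31 CPM at 12 h and 0.256, 0 and 0.602 CPM at 3 h (log2 2.73 ± 0.73, adjusted p = 0.0225), and its call was lost without replicate 1 at 3 h and without replicate 1 or 3 at 12 h.

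Most immediate early genes tested fell. Of 25 members tested 16 fell and 2 rose, with a median log2 fold change of -0.68 against 0.00 over all genes tested, and 11 fell and 0 rose without the block. The shares over all genes tested were 7.06% and 6.59%, and 3.22% and 2.66% without the block. NR4A1 (chromosome 12, 52051402 to 52059506), an orphan nuclear receptor induced by growth factors, had 8.85, 12.0 and 8.91 CPM at 12 h and 79.7, 113 and 150.4 CPM at 3 h (log2 -3.50 ± 0.24, adjusted p = 9.97e-07). EGR1 (chromosome 5, 138465479 to 138469303), a zinc-finger factor and a classical target of SRF, had 15.99, 16.4 and 14.6 CPM at 12 h and 31.5, 54.4 and 48.6 CPM at 3 h (log2 -1.49 ± 0.19, adjusted p = 0.000177). EGR3, a related zinc-finger factor, had 0.509, 0.474 and 0.678 CPM at 12 h and 4.71, 5.86 and 10.5 CPM at 3 h (log2 -3.61 ± 0.36, adjusted p = 2.70e-05). These 3 genes were separated between the groups in every library. NR4A1 overlaps the antisense gene NR4A1AS, and no source names a strand setting for counting, so their reads cannot be told apart. The same holds for other named genes that overlap an antisense gene, among them ALDH1A3, CYP1B1, TYMS, CCN2, GCLC and EGFR. In bulk RNA a lower level in every cell and fewer cells with the transcript cannot be told apart, here and in all results that follow.

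The 250 bases before the RefSeq start of EGR1 are shown because SRF binds its consensus there in the textbook account of this promoter. They lie at chr5:138465229-138465478 on the plus strand of GRCh38.p14, and capitals mark its 2 matches to the consensus serum response element, searched by letters on both strands.
EGR1: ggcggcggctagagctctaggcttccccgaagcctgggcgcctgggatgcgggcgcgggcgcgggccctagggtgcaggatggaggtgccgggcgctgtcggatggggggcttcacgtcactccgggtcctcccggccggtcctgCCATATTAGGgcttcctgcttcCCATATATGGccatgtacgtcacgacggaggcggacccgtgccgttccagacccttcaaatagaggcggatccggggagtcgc
The element was present in the 300-base windows around the start of 351 of 27305 genes (1.29%), in 135 of the 12230 tested genes with a window (1.10%) and in 1 of the 12 immediate early genes that fell and had a window, which is EGR1. A match in the letters is no measurement of binding.

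Other immediate early genes fell by less. KLF6, a Krüppel-like factor, had 61.0, 56.6 and 67.4 CPM at 12 h and 122, 116 and 129 CPM at 3 h (log2 -0.99 ± 0.12, adjusted p = 0.000154). IER5, a heat shock factor regulator, had 13.2, 12.9 and 13.2 CPM at 12 h and 24.5, 23.2 and 24.4 CPM at 3 h (log2 -0.87 ± 0.11, adjusted p = 0.000131). Their 3 libraries per group lay close together and did not overlap. FOS, a subunit of AP-1, had 41.5, 60.7 and 41.9 CPM at 12 h and 64.1, 89.8 and 77.7 CPM at 3 h (log2 -0.69 ± 0.12, adjusted p = 0.00147), a smaller fall that did not pass without the block (adjusted p = 0.105). Its paralogue FOSB had 15.4, 24.0 and 20.5 CPM at 12 h and 23.7, 25.4 and 39.6 CPM at 3 h, with overlapping groups (log2 -0.58 ± 0.18, adjusted p = 0.0448). Without the block the adjusted p was 0.372, and the call was lost when any 1 of 5 libraries was left out, all but replicate 2 at 3 h. ATF3, a stress-induced repressor of the same bZIP family, went the other way with 21.3, 27.4 and 29.5 CPM at 12 h and 9.39, 9.51 and 18.8 CPM at 3 h (log2 1.09 ± 0.25, adjusted p = 0.0113). Its adjusted p was 0.0593 without the block, and the call was lost without replicate 1 at 3 h. At 21 h the 2 fitted libraries had 80.2 and 71.6 CPM of ATF3, a change from 12 h that did not pass (adjusted p = 0.117).

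Negative feedback regulators of MAP kinase signalling and EGF family genes changed in part. Of 18 feedback genes tested 4 fell and 2 rose (3 and 1 without the block), and of 12 EGF ligands and receptors 4 fell and 1 rose (3 and 1 without the block). The share of all genes tested that passed was 13.7%, and 5.87% without the block. DUSP5, a nuclear phosphatase of ERK, had 3.24, 3.41 and 3.80 CPM at 12 h and 8.04, 7.54 and 9.47 CPM at 3 h (log2 -1.26 ± 0.17, adjusted p = 0.000238). ERRFI1, which binds and inhibits EGFR, had 64.6, 62.0 and 51.5 CPM at 12 h and 112, 111 and 89.2 CPM at 3 h (log2 -0.81 ± 0.10, adjusted p = 0.000113). Both were lower in all 12 h libraries. SPRY4, an inhibitor of receptor tyrosine kinase signalling, had 22.4, 19.1 and 18.6 CPM at 12 h and 36.3, 56.5 and 32.5 CPM at 3 h (log2 -1.003 ± 0.20, adjusted p = 0.00454). DUSP10, a phosphatase that prefers JNK and p38, had 12.2, 12.2 and 10.7 CPM at 12 h and 6.64, 3.99 and 6.81 CPM at 3 h (log2 1.00 ± 0.24, adjusted p = 0.0140), and its rise was not called without replicate 2 at 3 h or replicate 1 at 12 h. The ligand TGFA had 10.7, 13.0 and 13.3 CPM at 12 h and 23.4, 25.04 and 29.3 CPM at 3 h (log2 -1.07 ± 0.11, adjusted p = 3.11e-05). The ligand HBEGF had 3.29, 2.65 and 3.56 CPM at 12 h and 5.18, 6.99 and 8.81 CPM at 3 h (log2 -1.12 ± 0.20, adjusted p = 0.00196). Of the receptors ERBB3 and EGFR fell, and ERBB2 did not pass. ERBB3, which signals through its EGF receptor partners, had 12.2, 20.2 and 16.3 CPM at 12 h and 35.3, 56.4 and 43.5 CPM at 3 h (log2 -1.48 ± 0.18, adjusted p = 0.000144). EGFR had 107, 165 and 173 CPM at 12 h and 178, 408 and 319.7 CPM at 3 h (log2 -0.96 ± 0.20, adjusted p = 0.00646), a call that was lost without the block (adjusted p = 0.168).

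Some inflammatory cytokines and NF-kB targets fell: 11 of 24 tested fell, 0 rose and 13 did not pass, median log2 fold change -0.70, and 7 fell without the block. LIF, a cytokine of the IL-6 family that overlaps the antisense gene LIF-AS2, had 1.09, 0.738 and 0.775 CPM at 12 h and 15.2, 19.7 and 22.4 CPM at 3 h (log2 -4.41 ± 0.27, adjusted p = 3.37e-07). IL24, a secreted cytokine, had 1.22, 0.585 and 1.37 CPM at 12 h and 4.24, 3.86 and 5.65 CPM at 3 h (log2 -2.13 ± 0.25, adjusted p = 0.000100). LIF and IL24 were several fold lower in every 12 h library. TNFAIP2, a TNF-induced protein, had 56.6, 68.0 and 47.8 CPM at 12 h and 158, 145 and 129 CPM at 3 h (log2 -1.35 ± 0.16, adjusted p = 0.000106). NFKB2, the p100 subunit of NF-kB, had 59.9, 70.9 and 56.1 CPM at 12 h and 135, 115 and 157 CPM at 3 h (log2 -1.14 ± 0.18, adjusted p = 0.000846). IL36G, an epithelial cytokine, was at 0 in all 12 h libraries and had 0.149, 0.471 and 1.04 CPM at 3 h, too low for a fold. Of 28 interferon and MHC class I genes 2 rose and 2 fell (0 and 1 without the block), a share near the 13.7% of all genes tested.

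Targets of the aryl hydrocarbon receptor (AHR), a ligand-activated factor that induces xenobiotic-metabolising enzymes, changed in part. Of 10 tested 5 fell, 1 rose and 4 did not pass, and the same number fell without the block while 0 rose. Among all genes tested 7.06% fell, and 3.22% without the block. Beside CYP1A1, CYP1B1, a related cytochrome P450, had 25.9, 30.3 and 22.6 CPM at 12 h and 101, 146 and 91.2 CPM at 3 h (log2 -2.08 ± 0.36, adjusted p = 0.00147). TIPARP, a mono-ADP-ribosyltransferase that dampens AHR, had 50.1, 35.0 and 54.0 CPM at 12 h and 112, 132 and 110.1 CPM at 3 h (log2 -1.37 ± 0.18, adjusted p = 0.000245). The AHR repressor AHRR, which overlaps PDCD6, had 2.27, 2.60 and 1.95 CPM at 12 h and 3.50, 4.11 and 5.07 CPM at 3 h (log2 -0.89 ± 0.19, adjusted p = 0.00666). ALDH1A3, a retinaldehyde dehydrogenase, had 24.6, 17.4 and 43.0 CPM at 12 h and 80.2, 68.2 and 192 CPM at 3 h (log2 -1.94 ± 0.14, adjusted p = 1.45e-06), with replicate 3 highest at both times. None of the 5 overlapped between the groups. AHR itself, chosen after its values were seen, had 18.6, 19.4 and 23.0 CPM at 12 h and 11.8, 16.9 and 12.3 CPM at 3 h and did not pass (log2 0.57 ± 0.18, adjusted p = 0.0555). At 21 h CYP1A1 was at 4.33 and 2.30 CPM in the 2 fitted libraries, still far below 3 h.

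**Figure D2:**
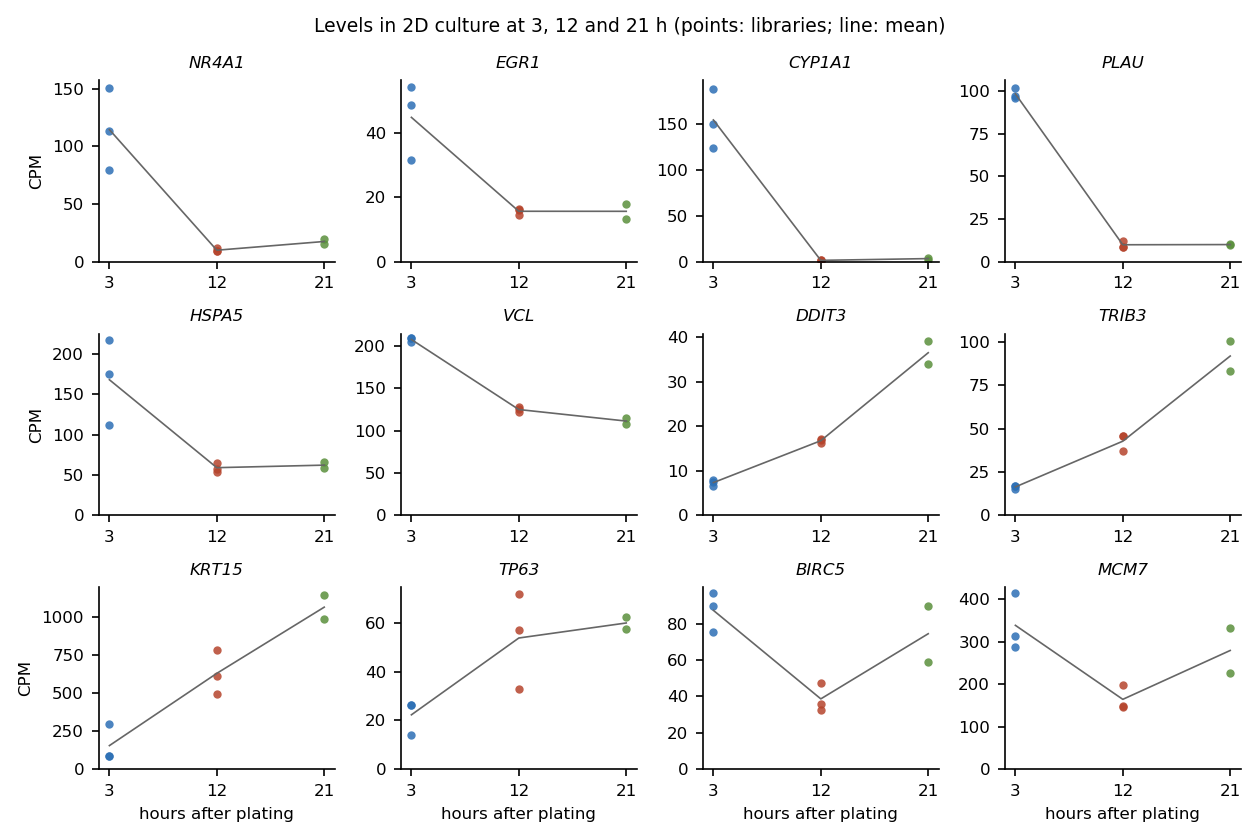
CPM of 12 genes in 2D culture at 3, 12 and 21 h after plating; points are libraries (3, 3 and 2) and the line joins the means. NR4A1, EGR1, CYP1A1, PLAU, HSPA5 and VCL had their highest libraries at 3 h, DDIT3, TRIB3 and KRT15 had their highest libraries at 21 h, and BIRC5 and MCM7 had their lowest libraries at 12 h.

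Some genes tied to adhesion and actin tension fell. Of 22 YAP and TAZ targets tested 11 fell and 2 rose (8 and 0 without the block), median log2 fold change -0.63, and of 33 actin and actomyosin genes 11 fell and 0 rose (6 and 0 without the block), with a median of -0.32. Among all genes tested 7.06% fell and 6.59% rose (3.22% and 2.66% without the block). CCN2, a matricellular protein and standard YAP target, had 2.31, 1.18 and 1.31 CPM at 12 h and 12.6, 8.82 and 6.02 CPM at 3 h (log2 -2.49 ± 0.32, adjusted p = 0.000189). Its relative CCN1 had 4.08, 3.01 and 3.44 CPM at 12 h and 18.0, 13.7 and 11.4 CPM at 3 h (log2 -1.996 ± 0.26, adjusted p = 0.000177). Replicate 1 was the highest library of both in each group. GADD45A, a growth arrest protein that is also a p53 target, had 21.6, 19.3 and 16.3 CPM at 12 h and 72.1, 71.8 and 84.1 CPM at 3 h (log2 -2.02 ± 0.20, adjusted p = 2.53e-05). AMOTL2, which binds and retains YAP, had 39.8, 34.8 and 34.5 CPM at 12 h and 89.7, 67.9 and 91.3 CPM at 3 h (log2 -1.20 ± 0.19, adjusted p = 0.000850). AJUBA, a LIM protein of cell junctions, had 23.1, 23.0 and 33.3 CPM at 12 h and 57.7, 48.8 and 67.5 CPM at 3 h (log2 -1.14 ± 0.15, adjusted p = 0.000206). In all 5 genes the groups did not overlap.

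SRF itself had 8.45, 10.3 and 9.63 CPM at 12 h and 21.2, 22.4 and 25.2 CPM at 3 h (log2 -1.28 ± 0.14, adjusted p = 4.64e-05). Vinculin (VCL), which links integrin adhesions to actin, had 122, 127 and 125 CPM at 12 h and 204, 209 and 209 CPM at 3 h (log2 -0.73 ± 0.10, adjusted p = 0.000203), with almost the same level in the 3 libraries of a group. CNN3, an actin-binding calponin, had 20.4, 16.8 and 21.0 CPM at 12 h and 42.6, 33.2 and 41.0 CPM at 3 h (log2 -1.003 ± 0.12, adjusted p = 0.000113). RND3, a GTPase that opposes RhoA, had 23.3, 14.5 and 22.1 CPM at 12 h and 46.7, 34.8 and 42.2 CPM at 3 h (log2 -1.07 ± 0.15, adjusted p = 0.000355). The myosin heavy chain MYH9 had 206, 246 and 238 CPM at 12 h and 287, 380.1 and 399 CPM at 3 h (log2 -0.62 ± 0.10, adjusted p = 0.00129), with an adjusted p of 0.0520 without the block. The filamin FLNA, which crosslinks actin, had 1759.8, 2038 and 1651 CPM at 12 h and 2284, 2544 and 2061 CPM at 3 h and did not pass (log2 -0.34 ± 0.13, adjusted p = 0.111).

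Some genes of the urokinase system, the matrix and the integrins fell. PLAU (chromosome 10, 73911132 to 73917494), the urokinase that activates plasminogen at the cell surface, had 8.77, 8.72 and 12.2 CPM at 12 h and 102, 96.2 and 97.1 CPM at 3 h (log2 -3.31 ± 0.19, adjusted p = 2.62e-07). Its receptor PLAUR had 28.1, 25.9 and 32.1 CPM at 12 h and 88.8, 87.8 and 156 CPM at 3 h (log2 -1.92 ± 0.15, adjusted p = 2.38e-06). PLAU overlaps the antisense gene C10orf55, whose reads cannot be told apart from it. PLAT, the tissue-type activator, had 71.6, 81.9 and 70.2 CPM at 12 h and 134, 152 and 145 CPM at 3 h (log2 -0.95 ± 0.18, adjusted p = 0.00350). Of 15 genes of this system and other matrix proteases 4 fell and 2 rose (4 and 1 without the block). Thrombospondin THBS1, an adhesive glycoprotein that overlaps the antisense gene THBS1-AS1 and the gene FSIP1, had 39.7, 35.3 and 40.0 CPM at 12 h and 175, 240.5 and 314 CPM at 3 h (log2 -2.63 ± 0.24, adjusted p = 1.50e-05). In all, 5 of 18 matrix and matricellular genes fell and 0 rose (3 and 0 without the block). Of 12 integrins 3 fell and 0 rose, and 0 passed without the block. Among them ITGA5, the fibronectin receptor chain, had 139, 140.4 and 86.4 CPM at 12 h and 289, 329.8 and 296 CPM at 3 h (log2 -1.38 ± 0.26, adjusted p = 0.00264), with an adjusted p of 0.0565 without the block. The laminins and hemidesmosome genes gave 1 call in 16 and 0 without the block, and the hemidesmosome integrin ITGB4 did not pass (log2 0.37 ± 0.18, adjusted p = 0.201). For comparison, 13.7% of all genes tested passed with the block and 5.87% without it, and the laminin list lay under both.

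Genes of the ER stress arms changed in part, and the arms were not tested against each other. Of 23 ATF6 targets and ER chaperones 7 fell and 0 rose, median log2 fold change -0.36, but 1 passed without the block. Of 30 PERK and ATF4 targets 8 rose and 3 fell, with a median of 0.05, and 6 rose and 0 fell without the block. Of 20 IRE1 and XBP1 targets 1 rose and 1 fell, and 0 passed without the block. Over all genes tested 13.7% passed, and 5.87% without the block. The IRE1 and XBP1 list lay under this share in both fits, and the ATF6 list lay under it without the block. HSPA5 (chromosome 9, 125234853 to 125241343), the main ER chaperone BiP, had 65.3, 57.4 and 54.2 CPM at 12 h and 174, 217 and 112 CPM at 3 h (log2 -1.46 ± 0.20, adjusted p = 0.000259), and it is the member that passed in both fits. MANF, a secreted ER protein, had 72.5, 49.5 and 70.6 CPM at 12 h and 117, 94.3 and 95.0 CPM at 3 h (log2 -0.69 ± 0.13, adjusted p = 0.00265), and did not pass without the block (adjusted p = 0.0866). XBP1 had 84.8, 65.7 and 83.4 CPM at 12 h and 107, 85.8 and 107 CPM at 3 h and did not pass (log2 -0.36 ± 0.11, adjusted p = 0.0507).

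The ER stress element, CCAAT and CCACG with 9 bases between them, is the known site of ATF6 with NF-Y, and the 250 bases before the RefSeq start of HSPA5 are shown because they hold it. They lie at chr9:125241344-125241593 on the minus strand of GRCh38.p14, and capitals mark the element with its spacer.
HSPA5: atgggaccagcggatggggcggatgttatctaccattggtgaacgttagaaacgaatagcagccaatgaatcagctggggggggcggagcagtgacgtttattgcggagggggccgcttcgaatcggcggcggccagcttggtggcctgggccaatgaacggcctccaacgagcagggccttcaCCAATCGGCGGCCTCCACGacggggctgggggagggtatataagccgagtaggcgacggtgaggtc
The element was found in 6 of the 20 list members with a window (30%), against 14 of 12230 tested genes (0.114%) and 22 of all 27305 windows (0.0806%), which describes how the list is made up. Of the 7 members that fell, 1 had it.

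Among the 8 PERK and ATF4 targets that rose were DDIT3, TRIB3 and ADM2. DDIT3 (chromosome 12, 57516593 to 57520517), the CHOP transcription factor, had 16.9, 17.2 and 16.2 CPM at 12 h and 7.52, 6.65 and 7.89 CPM at 3 h (log2 1.19 ± 0.16, adjusted p = 0.000230). TRIB3, a pseudokinase induced by CHOP and ATF4, had 36.9, 45.9 and 45.6 CPM at 12 h and 16.7, 15.3 and 17.2 CPM at 3 h (log2 1.37 ± 0.14, adjusted p = 4.07e-05). ADM2, a secreted peptide and ATF4 target, had 1.65, 3.06 and 2.32 CPM at 12 h and 0.470, 0.303 and 0.451 CPM at 3 h (log2 2.43 ± 0.31, adjusted p = 0.000178). All 3 were separated between the groups. At 21 h the 2 fitted libraries had 39.1 and 33.9 CPM of DDIT3, 83.3 and 101 CPM of TRIB3 and 5.56 and 4.76 CPM of ADM2, and the change from 12 to 21 h passed for DDIT3 (adjusted p = 0.0380) and TRIB3 (adjusted p = 0.0415) and not for ADM2 (adjusted p = 0.327). PCK2, mitochondrial phosphoenolpyruvate carboxykinase, had 70.5, 77.1 and 69.6 CPM at 12 h and 40.4, 28.8 and 39.5 CPM at 3 h (log2 1.00 ± 0.15, adjusted p = 0.000522). STC2, a secreted glycoprotein, had 23.9, 25.3 and 23.1 CPM at 12 h and 9.39, 9.98 and 12.7 CPM at 3 h (log2 1.18 ± 0.18, adjusted p = 0.000673). The 3 members that fell are named after their values were seen. They were PHGDH (log2 -0.67, adjusted p = 0.0158), MTHFD2 (log2 -0.40, adjusted p = 0.00839) and CEBPB (log2 -0.32, adjusted p = 0.0466). Without the block 0 members fell, and the list as a whole had a median of 0.05. The ATF4 transcript had 164, 176 and 178 CPM at 12 h and 188, 140.2 and 298 CPM at 3 h, with overlapping groups, and did not pass (log2 -0.22 ± 0.19, adjusted p = 0.522); ATF4 is known to be controlled at translation, which RNA levels do not report. Among 20 tested heat shock proteins 3 rose and 1 fell (2 and 1 without the block): the small heat shock protein HSPB1 had 347, 408 and 419 CPM at 12 h and 155, 95.5 and 212 CPM at 3 h (log2 1.37 ± 0.23, adjusted p = 0.00129). CRYAB, a lens and muscle crystallin, had 9.01, 7.38 and 10.6 CPM at 12 h and 2.89, 0.977 and 2.47 CPM at 3 h (log2 2.10 ± 0.43, adjusted p = 0.00509). The member that fell was BAG3 (log2 -0.66, adjusted p = 0.000297), and its call was kept without the block.

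**Figure D3:**
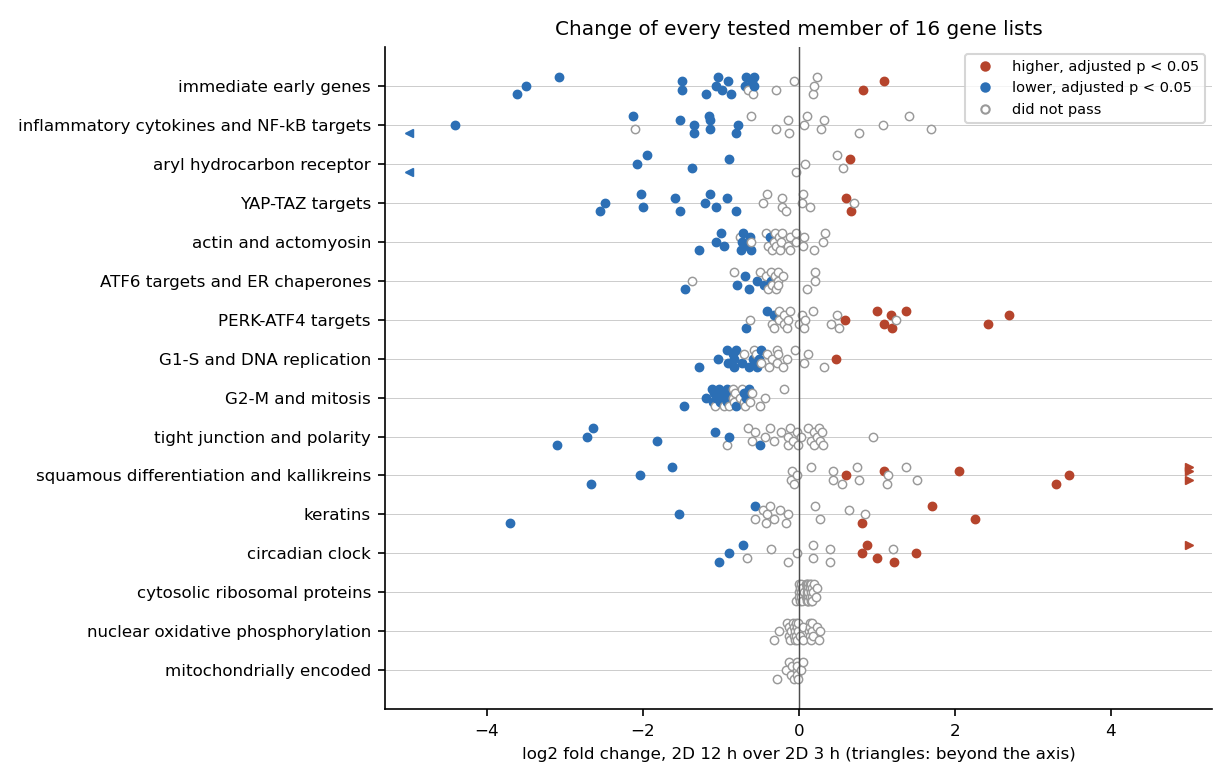
Log2 fold change at 12 h over 3 h in 2D culture for every tested member of 16 gene lists; filled points passed an adjusted p under 0.05 (red higher, blue lower), open points did not, and triangles lie beyond the axis. The immediate early, YAP and TAZ, actin, G1-S and G2-M lists lie mostly below 0, the squamous list spreads to both sides, and ribosomal, oxidative phosphorylation and mitochondrially encoded genes sit close to 0.

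Cell cycle genes fell in part. Of 32 G1-S and DNA replication genes 15 fell and 1 rose, median log2 fold change -0.53, and of 33 G2-M genes 17 fell and 0 rose, with a median of -0.85, against 7.06% of all genes tested that fell. Without the block 6 and 11 fell and 0 rose. TYMS, thymidylate synthase, had 32.1, 25.3 and 36.7 CPM at 12 h and 88.2, 67.8 and 68.3 CPM at 3 h (log2 -1.28 ± 0.17, adjusted p = 0.000228). MCM7, a subunit of the replicative helicase, had 147, 148 and 197 CPM at 12 h and 314, 286 and 414 CPM at 3 h (log2 -1.04 ± 0.11, adjusted p = 4.88e-05). MCM5 had 42.4, 42.7 and 55.3 CPM at 12 h and 79.7, 71.1 and 93.4 CPM at 3 h (log2 -0.80 ± 0.12, adjusted p = 0.000456). CDC45, which activates the helicase, had 18.4, 19.2 and 28.6 CPM at 12 h and 39.1, 34.7 and 49.0 CPM at 3 h (log2 -0.90 ± 0.13, adjusted p = 0.000331), with an adjusted p of 0.0524 without the block. GINS2, another helicase subunit, had 5.04, 4.90 and 8.18 CPM at 12 h and 9.13, 7.63 and 13.2 CPM at 3 h, with overlapping groups (log2 -0.73 ± 0.12, adjusted p = 0.00119) and an adjusted p of 0.274 without the block.

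Of the mitotic genes BIRC5, survivin of the chromosomal passenger complex, had 35.8, 32.7 and 47.5 CPM at 12 h and 89.9, 75.4 and 96.8 CPM at 3 h (log2 -1.19 ± 0.11, adjusted p = 1.36e-05). CDC25C, the phosphatase that activates CDK1, had 10.1, 7.08 and 9.75 CPM at 12 h and 30.4, 24.99 and 18.1 CPM at 3 h (log2 -1.47 ± 0.22, adjusted p = 0.000640). CKS1B, a CDK-binding subunit, had 7.94, 6.90 and 9.34 CPM at 12 h and 16.2, 14.6 and 20.5 CPM at 3 h (log2 -1.08 ± 0.14, adjusted p = 0.000168). The ubiquitin-conjugating enzymes of the anaphase-promoting complex were lower as well. UBE2C had 49.2, 39.7 and 61.0 CPM at 12 h and 116, 89.4 and 109 CPM at 3 h (log2 -1.10 ± 0.15, adjusted p = 0.000291). UBE2S had 15.6, 17.6 and 19.9 CPM at 12 h and 30.2, 28.3 and 33.7 CPM at 3 h (log2 -0.80 ± 0.10, adjusted p = 0.000198). In all 5 the groups did not overlap. MKI67, the proliferation antigen, had 44.8, 42.3 and 71.9 CPM at 12 h and 71.8, 159.9 and 51.6 CPM at 3 h, with replicate 2 at 3 h highest, and did not pass (log2 -0.76 ± 0.39, adjusted p = 0.239). At 21 h BIRC5 was at 59.0 and 90.0 CPM and MCM7 at 225 and 333 CPM in the 2 fitted libraries, above the 12 h libraries, and the change from 12 to 21 h passed for BIRC5 (adjusted p = 0.0323) and not for MCM7 (adjusted p = 0.115).

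Promoters of the cell cycle genes were searched for the motifs known for these phases. E2F factors bind TTTCCCGC in G1-S promoters, and the cell cycle homology region (CHR), TTTGAA, recruits the MuvB complexes to G2-M promoters, often beside CCAAT boxes bound by NF-Y. On both strands the E2F site was found in 6 of 13 windows of G1-S genes that fell (46.2%), against 312 of 12230 tested genes (2.55%) and 1.66% of all windows. The CHR was found in 7 of 14 windows of G2-M genes that fell (50%), against 10.1% of tested genes and 15.4% of all windows, and CCAAT in 12 of 14 (85.7%), against 36.1% and 35.7%. Over each whole list, whether its genes fell or not, 8 of 26 G1-S windows (30.8%) held the E2F site and 17 of 27 G2-M windows (63%) held the CHR, so the shares describe how the lists are made up. A promoter of each kind is shown, both on the plus strand of GRCh38.p14 and 250 bases long, at chr18:657403-657652 with the E2F site in capitals and at chr1:154974431-154974680 with the CHR (the last capitals) and its CCAAT boxes in capitals.
TYMS: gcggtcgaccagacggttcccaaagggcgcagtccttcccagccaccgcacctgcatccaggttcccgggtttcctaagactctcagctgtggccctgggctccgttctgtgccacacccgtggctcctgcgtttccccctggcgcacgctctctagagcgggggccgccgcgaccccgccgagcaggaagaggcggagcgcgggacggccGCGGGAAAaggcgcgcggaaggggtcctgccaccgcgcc
CKS1B: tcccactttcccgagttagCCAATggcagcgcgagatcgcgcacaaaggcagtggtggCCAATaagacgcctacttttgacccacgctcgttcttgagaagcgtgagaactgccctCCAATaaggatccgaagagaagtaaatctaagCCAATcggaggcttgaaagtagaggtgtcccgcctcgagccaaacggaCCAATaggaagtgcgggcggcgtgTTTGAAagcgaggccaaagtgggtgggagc

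**Figure D4:**
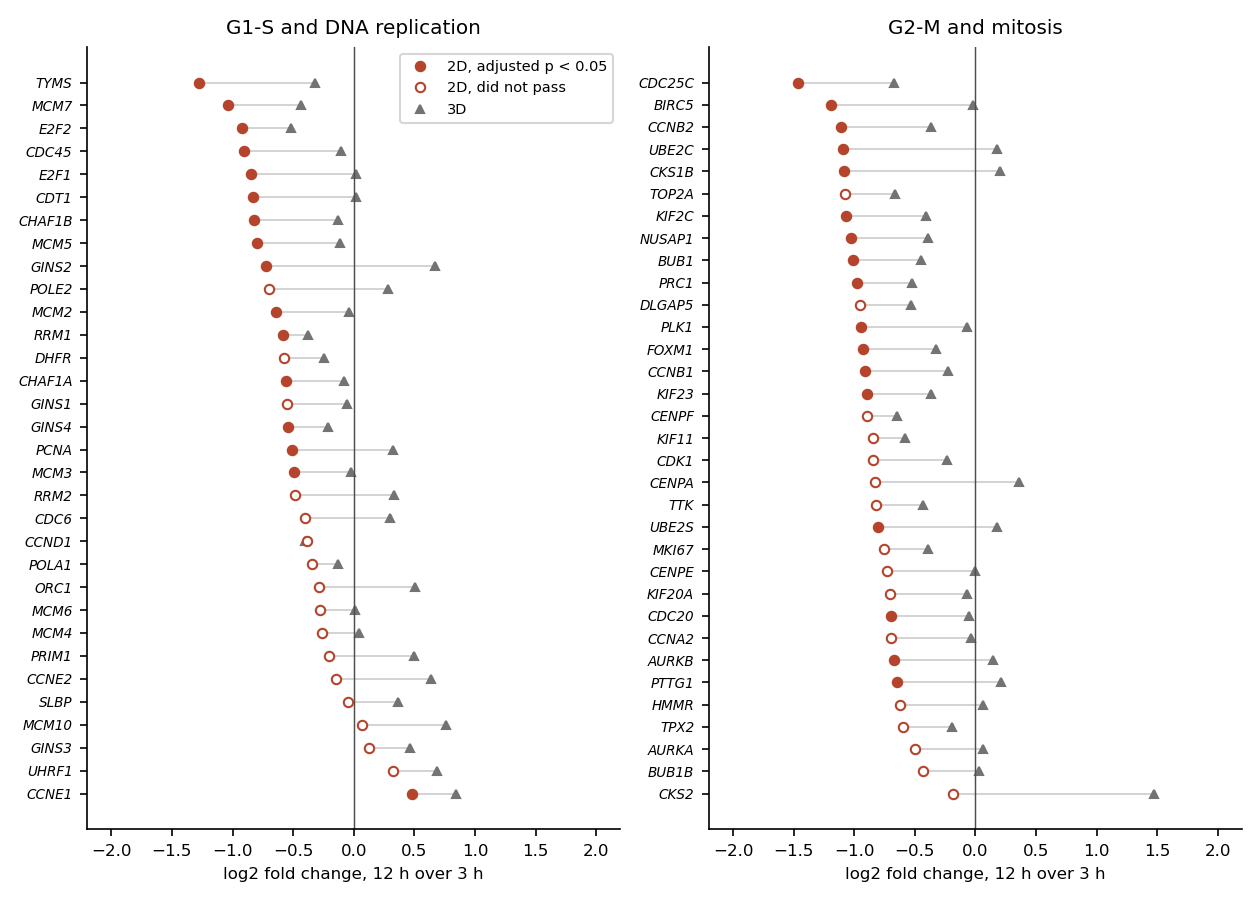
Log2 fold change at 12 h over 3 h for every tested gene of the G1-S (left) and G2-M (right) lists, in 2D culture (circles, filled where the adjusted p was under 0.05) and in 3D culture (grey triangles). All 33 G2-M genes lie below 0 in 2D, with a median of -0.85 against -0.19 in 3D, and most triangles lie to the right of their circles.

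Epithelial junction genes fell in part and keratins and squamous genes split. Of 32 tight junction and polarity genes 7 fell and 0 rose, in both fits, and of 11 desmosome genes 4 fell and 1 rose (3 and 0 without the block). Among all genes tested 7.06% fell, and 3.22% without the block. CLDN1, a barrier-forming claudin, had 2.79, 3.09 and 4.09 CPM at 12 h and 18.2, 19.9 and 27.7 CPM at 3 h (log2 -2.72 ± 0.13, adjusted p = 1.86e-07). CLDN4 had 5.02, 6.27 and 10.7 CPM at 12 h and 44.7, 41.8 and 114 CPM at 3 h (log2 -3.10 ± 0.30, adjusted p = 2.16e-05). Replicate 3 was highest in both groups for these claudins. OCLN, occludin, had 1.09, 1.60 and 3.47 CPM at 12 h and 8.47, 14.8 and 12.0 CPM at 3 h (log2 -2.63 ± 0.34, adjusted p = 0.000168). CGN, cingulin, had 0.980, 1.28 and 1.73 CPM at 12 h and 3.41, 4.28 and 6.44 CPM at 3 h (log2 -1.82 ± 0.21, adjusted p = 7.37e-05). TJP1, the scaffold ZO-1, had 84.1, 78.0 and 94.4 CPM at 12 h and 152, 205 and 186 CPM at 3 h (log2 -1.08 ± 0.14, adjusted p = 0.000153). Of the desmosome genes JUP, plakoglobin, had 289.6, 398 and 392 CPM at 12 h and 527, 589 and 935 CPM at 3 h (log2 -0.91 ± 0.15, adjusted p = 0.00129), DSC3, a desmocollin, had 25.5, 25.03 and 32.0 CPM at 12 h and 52.2, 88.4 and 54.3 CPM at 3 h (log2 -1.21 ± 0.22, adjusted p = 0.00251). PKP2, plakophilin 2, had 38.7, 38.4 and 36.5 CPM at 12 h and 51.7, 60.6 and 63.6 CPM at 3 h (log2 -0.63 ± 0.10, adjusted p = 0.00114). DSG3, a desmoglein, had 25.05, 26.2 and 29.8 CPM at 12 h and 40.0, 75.5 and 46.8 CPM at 3 h (log2 -0.94 ± 0.22, adjusted p = 0.0124), but did not pass without the block (adjusted p = 0.0631) or without replicate 2 at 12 h. E-cadherin, CDH1, had 112, 148 and 146 CPM at 12 h and 153, 263 and 236 CPM at 3 h, without overlap, and did not pass (log2 -0.65 ± 0.21, adjusted p = 0.0555).

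Of 19 keratins tested 3 rose and 3 fell (2 and 2 without the block), while 13.7% of all genes tested passed, and 5.87% without the block. KRT15 (chromosome 17, 41513745 to 41518890), a keratin of basal and progenitor cells, had 492, 613 and 780.4 CPM at 12 h and 84.4, 84.1 and 294 CPM at 3 h (log2 2.26 ± 0.28, adjusted p = 0.000144), and at 3 h replicate 3 stood well above replicates 1 and 2. KRT16, a keratin of wounded and activated epidermis, had 87.9, 146 and 139 CPM at 12 h and 32.2, 25.1 and 55.7 CPM at 3 h (log2 1.70 ± 0.25, adjusted p = 0.000469). KRT6B, a type II keratin, fell, with 2.67, 3.04 and 6.13 CPM at 12 h and 9.59, 6.97 and 17.7 CPM at 3 h (log2 -1.53 ± 0.20, adjusted p = 0.000173). KRT14, a basal keratin, had 133, 184 and 252 CPM at 12 h and 75.2, 64.3 and 215 CPM at 3 h, with overlapping groups (log2 0.81 ± 0.24, adjusted p = 0.0398). Its adjusted p was 0.498 without the block, and the call was lost without replicate 1 or 2 at 3 h or any 12 h library. KRT18, a simple epithelial keratin, had 287, 311 and 293 CPM at 12 h and 466, 307 and 581 CPM at 3 h, also overlapping (log2 -0.56 ± 0.18, adjusted p = 0.0486), with an adjusted p of 0.147 without the block, and was lost without replicate 1 or 3 of either group. The abundant basal keratin KRT5 had 3769.9, 4518 and 4808 CPM at 12 h and 5065, 4394 and 8305 CPM at 3 h and did not pass (log2 -0.40 ± 0.18, adjusted p = 0.165).

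Of 25 squamous differentiation genes and kallikreins 8 rose and 3 fell (4 and 3 without the block), with a median log2 fold change of 0.74. The members ranged from -2.66 to 7.16. Those given next, SPRR1B, SPRR1A, KLK7 and PI3, lie above 0 and do not stand for the whole list. Of all genes tested 13.7% passed, and 5.87% without the block. Beside SPRR1B, its paralogue SPRR1A, whose reads may be partly shared with it, had 0.993, 1.17 and 2.42 CPM at 12 h and 0.0747, 0.135 and 0.286 CPM at 3 h (log2 3.31 ± 0.39, adjusted p = 8.79e-05). KLK7, a kallikrein protease named after its values were seen, had 1.17, 1.32 and 3.35 CPM at 12 h and 0.0427, 0.0842 and 0 CPM at 3 h, too low at 3 h for a fold. PI3, the elastase inhibitor elafin, had 4.90, 5.11 and 9.97 CPM at 12 h and 2.72, 1.55 and 5.61 CPM at 3 h, with overlapping groups (log2 1.10 ± 0.19, adjusted p = 0.00131) and an adjusted p of 0.302 without the block. The epithelial transcription factors ELF3 and GRHL3 fell. ELF3 had 17.2, 15.7 and 23.9 CPM at 12 h and 62.4, 56.5 and 126 CPM at 3 h (log2 -2.03 ± 0.28, adjusted p = 0.000297). GRHL3 had 12.8, 22.3 and 24.2 CPM at 12 h and 48.8, 56.3 and 74.7 CPM at 3 h (log2 -1.62 ± 0.26, adjusted p = 0.000961). ELF3 overlaps ENSG00000249007 (log2 -1.998 ± 0.26, adjusted p = 0.000221), and their reads cannot be told apart. The related factor EHF rose, with 27.3, 45.0 and 47.3 CPM at 12 h and 11.5, 14.9 and 12.0 CPM at 3 h (log2 1.57 ± 0.34, adjusted p = 0.00710). TP63 (chromosome 3, 189631389 to 189897276), the master regulator of basal epithelium, rose too, with 32.7, 57.0 and 71.6 CPM at 12 h and 14.1, 26.4 and 26.3 CPM at 3 h (log2 1.26 ± 0.13, adjusted p = 3.79e-05).

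The 250 bases before the RefSeq start of SPRR1B are shown because AP-1 is a known regulator of small proline-rich genes. They lie at chr1:153030953-153031202 on the plus strand of GRCh38.p14, and capitals mark the AP-1 element TGACTCA, read here on the reverse strand.
SPRR1B: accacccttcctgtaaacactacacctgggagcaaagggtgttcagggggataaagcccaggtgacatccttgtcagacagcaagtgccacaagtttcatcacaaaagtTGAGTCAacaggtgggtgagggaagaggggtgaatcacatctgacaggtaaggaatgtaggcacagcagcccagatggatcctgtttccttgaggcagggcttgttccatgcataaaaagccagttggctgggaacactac
This element was found in 3 of 6 windows of squamous genes that rose (50%) and in 6 of 19 windows of the whole list (31.6%), against 439 of 12230 tested genes (3.59%) and 4.92% of all windows. Over all genes that rose it was found in 43 of 921 windows (4.67%), and over all that fell in 46 of 964 (4.77%).

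Clock genes moved in both directions. Of 18 tested 6 rose and 3 fell (5 and 2 without the block), and the median log2 fold change was 0.29. The share of all genes tested that passed was 13.7%, and 5.87% without the block. BMAL1, the core activator of the clock, had 56.3, 46.1 and 65.2 CPM at 12 h and 104, 96.6 and 141 CPM at 3 h (log2 -1.03 ± 0.13, adjusted p = 0.000192). The repressor CRY1 had 4.65, 3.32 and 2.85 CPM at 12 h and 6.68, 6.55 and 6.62 CPM at 3 h (log2 -0.90 ± 0.15, adjusted p = 0.00108). TEF, a PAR bZIP output factor of the clock, had 3.45, 5.04 and 2.75 CPM at 12 h and 1.28, 1.21 and 1.35 CPM at 3 h (log2 1.498 ± 0.24, adjusted p = 0.000988). NFIL3, which opposes PAR bZIP factors, had 7.16, 5.64 and 5.27 CPM at 12 h and 3.41, 2.95 and 1.59 CPM at 3 h (log2 1.22 ± 0.20, adjusted p = 0.000957). PER1, a repressor that glucocorticoids induce, had 127, 195 and 127 CPM at 12 h, against 79.7 and 76.9 CPM in replicates 1 and 3 and 94 CPM in replicate 2 at 3 h (log2 0.81 ± 0.12, adjusted p = 0.000536), with an adjusted p of 0.0717 without the block. HLF, another PAR bZIP factor, named after its values were seen, was at 0.509, 0.543 and 0.401 CPM at 12 h and at 0 in all 3 h libraries. The medium of both groups held hydrocortisone, and of 19 glucocorticoid-responsive genes 3 rose and 6 fell (2 and 4 without the block). SGK1, a kinase induced by glucocorticoids, had 83.8, 99.1 and 88.8 CPM at 12 h and 36.1, 40.8 and 26.2 CPM at 3 h (log2 1.41 ± 0.17, adjusted p = 0.000108). PDK4, which inhibits pyruvate dehydrogenase, had 52.9, 31.4 and 25.7 CPM at 12 h and 154, 215 and 174 CPM at 3 h (log2 -2.38 ± 0.20, adjusted p = 6.07e-06). SGK1 was higher and PDK4 lower in every 12 h library.

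Lipid synthesis genes were partly lower. Of 23 sterol genes 5 fell and 1 rose (3 and 0 without the block), and of 12 fatty acid genes 4 fell and 1 rose (3 and 1 without the block). FDPS, farnesyl diphosphate synthase, had 921, 862 and 1048 CPM at 12 h and 1679.9, 1367 and 1984 CPM at 3 h (log2 -0.82 ± 0.13, adjusted p = 0.000675). LSS, lanosterol synthase, had 88.1, 121 and 95.2 CPM at 12 h and 168, 209 and 207 CPM at 3 h (log2 -0.95 ± 0.10, adjusted p = 4.64e-05). The desaturases FADS2 and SCD fell. FADS2 had 69.5, 78.2 and 74.6 CPM at 12 h and 227, 224 and 141 CPM at 3 h (log2 -1.38 ± 0.19, adjusted p = 0.000331). SCD had 63.7, 65.1 and 76.0 CPM at 12 h and 183, 167 and 106 CPM at 3 h (log2 -1.12 ± 0.24, adjusted p = 0.00652). Of 31 glycolysis and hypoxia genes 4 rose and 1 fell (2 and 0 without the block). The glycolysis and hypoxia counts lay near the shares of all genes tested, 13.7% with the block and 5.87% without it. The sterol and fatty acid counts lay above these shares in both fits. PFKFB4, a regulator of glycolytic flux, had 7.18, 7.93 and 8.13 CPM at 12 h and 3.25, 3.64 and 4.35 CPM at 3 h (log2 1.05 ± 0.20, adjusted p = 0.00270). GCLC, which makes the precursor of glutathione, had 166, 129.7 and 95.9 CPM at 12 h and 345, 374 and 229.8 CPM at 3 h (log2 -1.29 ± 0.13, adjusted p = 2.80e-05), while 2 of 21 NRF2 and glutathione genes rose and 2 fell (2 and 1 without the block).

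Some groups gave 0 calls. None of 40 cytosolic ribosomal protein genes, 32 nuclear oxidative phosphorylation genes, 13 mitochondrially encoded genes or 19 TGF-beta and BMP response genes passed in edgeR's test, and their median log2 fold changes were 0.11, -0.02, -0.02 and 0.02. At an unadjusted p under 0.05 they gave 0, 1, 0 and 4 genes, and DESeq2 called 0, 0, 0 and 1. In ribosome biogenesis 6 of 34 genes rose and 0 fell (1 and 0 without the block). POLR1B, a subunit of RNA polymerase I, had 121, 110.1 and 139.9 CPM at 12 h and 81.8, 77.6 and 78.4 CPM at 3 h (log2 0.63 ± 0.10, adjusted p = 0.00116). Of 31 proteasome subunits 0 rose and 1 fell, of 30 translocon and glycosylation genes 0 rose and 1 fell, and of 25 lysosome and autophagy genes 0 rose and 2 fell. Of 20 aminoacyl-tRNA synthetases 2 rose and 0 fell. In these 4 lists 0 genes passed without the block.

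Other lists gave more calls. Over all genes tested 13.7% passed, and 5.87% without the block. Of 23 p53 targets 2 rose and 7 fell (0 and 4 without the block). PLK3, a stress-responsive polo-like kinase, had 11.3, 12.2 and 10.9 CPM at 12 h and 26.4, 22.2 and 33.2 CPM at 3 h (log2 -1.24 ± 0.14, adjusted p = 7.19e-05). CDKN1A, the CDK inhibitor p21, did not pass (log2 -0.19 ± 0.13, adjusted p = 0.408). MYC (log2 -0.29 ± 0.12, adjusted p = 0.1395) did not pass. Of 15 cAMP and CREB targets 3 rose and 5 fell (0 and 1 without the block). Of 16 BCL2 family genes 0 rose and 3 fell (0 and 1 without the block), counts near the shares over all genes in edgeR's test. At an unadjusted p under 0.05 in that test 13 of the 16 passed, against 4951 of 18592 genes tested. DESeq2 called 9 of the 16, against 3277 of 18592, so other measures set this list above the share. Of 9 clade B serpins 0 rose and 3 fell (0 and 2 without the block), among them the overlapping SERPINB2 and SERPINB10.

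The change from 3 to 12 h in 2D was tested against the same change in 3D, which used separate libraries. In 3D 5279 of 18592 genes passed (28.4%), and 1625 genes, of the 2539 called in 2D and the 5279 called in 3D, were called in both in the same direction and 19 in opposite directions. The difference of the 2 changes, 2D minus 3D, passed for 243 genes (1.31%), 99 above 0 (0.532%) and 144 below 0 (0.775%), with the replicate number as a block. Without the block it passed for 0 genes in edgeR's test, with 1624 at an unadjusted p under 0.05, and DESeq2 with the block called 1023. Between 35 and 724 passed when 1 library was left out, which moved the count by over 1.5 times for each of the 12 libraries, and between 1 and 3 when a replicate number was left out. The genes below therefore rest on the block. With the block kept, leaving out 1 of the 12 libraries ended the call of CMTM3 in 9 cases, of NOX5 in 8, of KRT15 in 7, and of OCLN, CYP4F12 and GIHCG in 6 each. The call of CMTM3 was also lost under RLE and upper-quartile scaling. In 0 of these cases was the call lost for ELF3, CLDN4, FOSB, ATF3, HSD11B2, BIRC5, GINS2, CKS2 or LINC00460. With all 18 libraries in the fit, however, ELF3, CLDN4, FOSB, ATF3, HSD11B2 and LINC00460 lost the call, while BIRC5, GINS2 and CKS2 kept it. CLDN4 and HSD11B2 also lost it with the 4 groups fitted alone and the block. Of the 243, 142 were not called in 2D. Of the 101 that were, 53 had fold changes of opposite sign in the cultures, 34 had the larger one in 3D and 14 in 2D. The share of counts in mitochondrially encoded genes was 0.908% to 1.18% in 2D at 12 h and 0.658% to 1.25% in 2D at 3 h, against 0.364% to 0.482% in 3D at 12 h and 0.541% to 1.21% in 3D at 3 h, and the part of this in the difference was not tested.

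ELF3, CLDN4 and OCLN fell in both cultures and by less in 2D. ELF3 had 17.2, 15.7 and 23.9 CPM at 12 h and 62.4, 56.5 and 126 CPM at 3 h in 2D. In 3D ELF3 was at 0.724, 1.64 and 2.10 CPM at 12 h and 79.1, 59.9 and 101 CPM at 3 h (difference log2 3.80 ± 0.41, adjusted p = 0.00265). CLDN4 had 0.142, 0.878 and 1.83 CPM at 12 h and 34.6, 35.0 and 83.7 CPM at 3 h in 3D (difference log2 2.83 ± 0.43, adjusted p = 0.00871). OCLN had 0.0593, 0.176 and 0.411 CPM at 12 h and 8.49, 11.1 and 8.23 CPM at 3 h in 3D (difference log2 2.99 ± 0.52, adjusted p = 0.0186), with the 2D values given above. At 3 h the ranges of the cultures overlapped in these 3 genes, and at 12 h all 3 genes were lower in every 3D library than in any 2D library. Of the junction lists 6 of 32 tight junction and 4 of 11 desmosome genes passed, all above 0. FOSB had 2.55, 5.07 and 5.37 CPM at 12 h and 29.3, 59.1 and 59.6 CPM at 3 h in 3D (difference log2 2.93 ± 0.26, adjusted p = 0.000378). ATF3 had 4.41, 7.90 and 7.22 CPM at 12 h and 13.1, 10.9 and 24.3 CPM at 3 h in 3D (difference log2 2.38 ± 0.36, adjusted p = 0.00871), so that the 2 AP-1 family genes were higher at 12 h in every 2D library than in any 3D library. KRT15 had 99.3, 169 and 276 CPM at 12 h and 93.0, 87.9 and 269.8 CPM at 3 h in 3D (difference log2 1.93 ± 0.38, adjusted p = 0.0297). HSD11B2 had 0.985, 1.66 and 1.30 CPM at 12 h and 0.932, 1.87 and 0.709 CPM at 3 h in 3D (difference log2 2.14 ± 0.34, adjusted p = 0.0111). The cytochrome P450 CYP4F12 had 1.81, 2.90 and 1.88 CPM at 12 h and 0.363, 0.488 and 0.526 CPM at 3 h in 2D. Its 3D level was 0.142, 0.839 and 0.632 CPM at 12 h and 0.542, 0.658 and 0.940 CPM at 3 h (difference log2 2.79 ± 0.54, adjusted p = 0.0291).

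Cell cycle genes lay below 0 in this difference. BIRC5, which fell in 2D, had 82.0, 70.7 and 115 CPM at 12 h and 90.2, 78.3 and 97.4 CPM at 3 h in 3D and did not pass there (difference log2 -1.18 ± 0.15, adjusted p = 0.00417). GINS2, which fell in 2D, rose in 3D with 13.1, 11.1 and 25.3 CPM at 12 h and 8.96, 8.05 and 12.8 CPM at 3 h (difference log2 -1.40 ± 0.17, adjusted p = 0.00349). CKS2, a CDK-binding subunit that did not pass in 2D, had 9.76, 7.86 and 11.5 CPM at 12 h and 12.6, 9.71 and 10.2 CPM at 3 h in 2D. In 3D it had 25.1, 23.7 and 42.0 CPM at 12 h and 11.1, 8.91 and 12.1 CPM at 3 h (difference log2 -1.66 ± 0.22, adjusted p = 0.00417). In CKS2 the 3 libraries of 3D at 12 h stood above the other 9. Of the G2-M list 6 of 33 and of the G1-S list 3 of 32 passed, all below 0. CMTM3, a chemokine-like membrane protein, had 5.05, 4.36 and 4.21 CPM at 12 h and 12.5, 10.6 and 12.1 CPM at 3 h in 2D. In 3D libraries it had 12.4, 11.0 and 6.11 CPM at 12 h and 10.4, 8.05 and 10.0 CPM at 3 h (difference log2 -1.42 ± 0.32, adjusted p = 0.0498). NOX5, a calcium-regulated NADPH oxidase, had 3.18, 3.01 and 2.56 CPM at 12 h and 1.40, 2.07 and 2.14 CPM at 3 h in 2D. The same gene in 3D had 18.4, 14.6 and 7.09 CPM at 12 h and 2.02, 2.10 and 1.55 CPM at 3 h (difference log2 -2.16 ± 0.45, adjusted p = 0.0373). The long noncoding RNAs LINC00460 and GIHCG rose in 3D and did not pass in 2D. LINC00460 had 3.81, 3.54 and 5.89 CPM at 12 h and 3.43, 3.25 and 5.16 CPM at 3 h in 2D. In 3D LINC00460 was at 10.4, 11.8 and 16.3 CPM at 12 h and 3.17, 3.22 and 6.15 CPM at 3 h (difference log2 -1.49 ± 0.21, adjusted p = 0.00750). GIHCG had 8.92, 6.78 and 6.28 CPM at 12 h and 6.69, 4.48 and 6.56 CPM at 3 h in 2D. In 3D GIHCG was at 16.5, 15.3 and 18.5 CPM at 12 h and 7.19, 3.58 and 4.45 CPM at 3 h (difference log2 -1.44 ± 0.26, adjusted p = 0.0205).

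**Figure D5:**
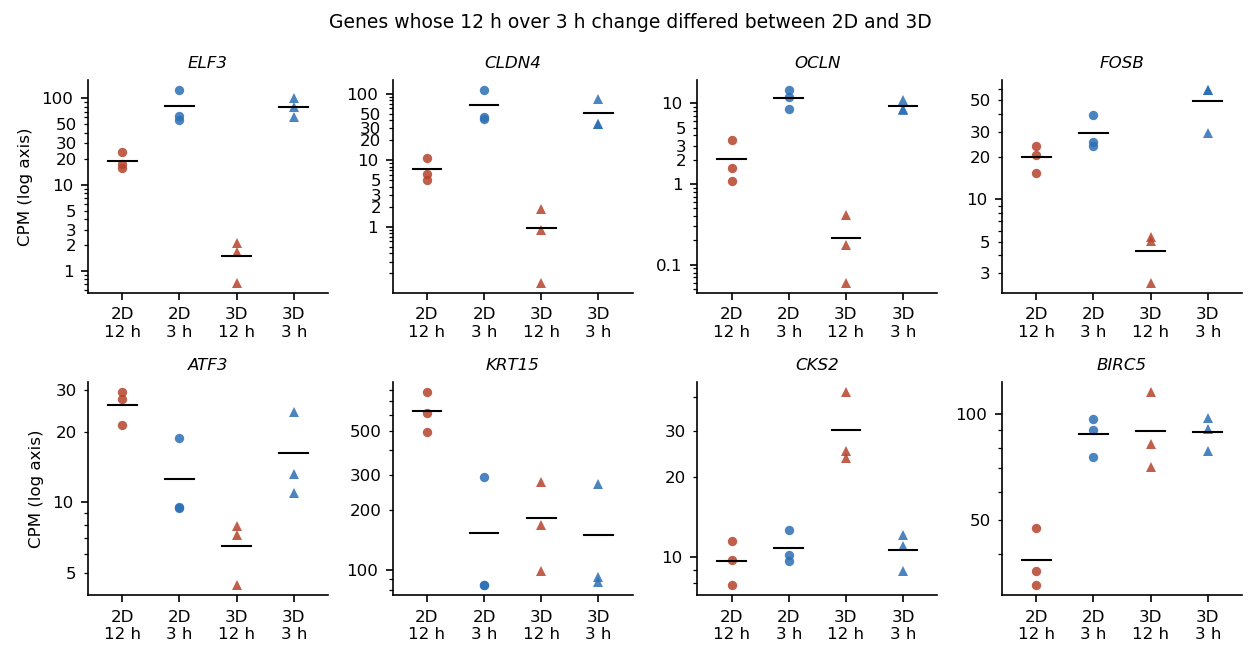
CPM per library (log axis) of 8 genes whose change from 3 to 12 h differed between 2D (circles) and 3D (triangles) at an adjusted p under 0.05 with the replicate block; red is 12 h, blue is 3 h and bars are means of 3 libraries. ELF3, CLDN4, OCLN and FOSB are lowest in 3D at 12 h, KRT15 is highest in 2D at 12 h, CKS2 is highest in 3D at 12 h and BIRC5 is lowest in 2D at 12 h.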

How the data were processed

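Poly-A RNA of MCF10A cells was sequenced as 50-base single reads, per the labels' protocols. The submitters' processing notes name the aligner STAR 2.7.1a, the HOMER suite, edgeR and limma, with build hg38. The strand, annotation and filters of counting were not given in any source used here. The authors deposited whole-number counts for 60662 genes in 18 libraries, and a log2 CPM table scaled by the authors that served as an alternative only. The sums of the deposited counts were 4.726 to 5.48 times the read totals in the 6 libraries' file headers, so they are not depth. The tables of the authors' own 3D against 2D comparisons, whose p-values are deposited, were not used.

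From these counts, edgeR 4.0.16 (R 4.3.3, limma 3.58.1) gave TMM factors and a quasi-likelihood F test after filterByExpr, with group and replicate number as terms. It used 17 of 18 libraries, without 2D timepoint 3 replicate 1, for which the labels name no file but the raw counts. Standard errors are the size of the log2 fold change over the root of F. The numbers were taken to pair libraries because each carries 1 date in the labels, whose meaning is not stated. In 2D, deviations from group means correlated at 0.30, -0.04 and 0.02 between same-numbered libraries of timepoints 2 and 1, and at -0.26 to 0.23 between different numbers. The common dispersion was 0.0363 with the block and 0.0686 without it.

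Members, 50 gene lists of 1001 genes (943 tested) and tests were chosen with earlier results of these data known. Named genes are up to 12 each way by fold change under the conditions given with them, up to 5 called members a list by p, 24 fixed genes, and up to 8 each way for the difference from 3D. Of the genes, 60306 were matched to a current symbol. Promoter windows, 250 bases before and 50 after the start, came from RefSeq on GRCh38.p14 for 153 of the 197 named genes, and 15 motifs were searched on both strands. The fit was tested on simulated data that held no replicate effect in the compared groups, so this test cannot judge the block. With the block it recovered 34.3% of changes of 2 fold and 77.3% of changes of 4 fold in 2D, with 1 false call. For the difference from 3D it recovered 2.99% and 60.6%, with 0 false calls. Alternatives included DESeq2 1.42.0. Some genes of the lists are not reported here.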

Additional observations from a re-analysis of the deposited data

Results flagged for a closer look

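For these genes the test of the difference itself, the change from 3 to 12 h in 2D minus that in 3D on the log2 scale, passed an adjusted p under 0.05 in edgeR's quasi-likelihood test with the replicate block. Their calls without the block were all lost, since 0 genes then passed. With the block kept, the calls of OVOL1 (11 of 12), CDC45, EHF, KRT16, PERP, RDM1 and SFTA1P (10 of 12 each) were lost in most cases where 1 library was left out. So were those of AL512274.1, ENSG00000277978 and CMTM3 (9 of 12 each), NOX5 (8 of 12), and DSG3 and KRT15 (7 of 12 each). Tight junction and desmosome genes lay above 0, namely CLDN4 (2.83), OCLN (2.99), CGN (1.72), CLDN1 (1.51), DSG3 (1.57) and PERP (0.61). Epithelial transcription factors also lay above 0, with ELF3 (3.80), GRHL3 (2.22), EHF (2.15) and OVOL1 (1.62), as did ENSG00000249007 (3.96), which overlaps ELF3. Keratins above 0 were KRT15 (1.93) and KRT16 (1.64). The bZIP factors FOSB (2.93) and ATF3 (2.38) followed, and so did the enzymes CYP4F12 (2.79), HSD11B2 (2.14), PDK4 (1.47) and AKR1B10 (1.41) and the noncoding RNA AL512274.1 (2.37). Below 0 were the cell cycle genes CKS2 (-1.66), GINS2 (-1.40), CKS1B (-1.28), UBE2C (-1.28), BIRC5 (-1.18), UBE2S (-0.98) and CDC45 (-0.80) and the recombination gene RDM1 (-1.66). The other genes below 0 were NOX5 (-2.16), SFTA1P (-1.76), LINC00460 (-1.49), GIHCG (-1.44), CMTM3 (-1.42) and ENSG00000277978 (-1.41). No group here has more than 3 libraries, so single libraries were not tested as outliers. No explanation of these differences was tested.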

How the results depend on the processing

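The genes that changed between 3 and 12 h in 2D numbered 2539 (1226 higher, 1313 lower). They numbered between 2351 and 3277 under DESeq2, limma-voom, RLE or upper-quartile scaling, no filter, a filter of 50 counts in 3 libraries and all 18 libraries, and, in alternatives added after the data were seen, 2732 with counts divided by GENCODE 29 transcript numbers and 2549 with limma on the deposited log2 CPM. Without the replicate block 1092 passed (494 higher, 598 lower), and all 1092 were shared with the same direction. With the 2 groups fitted alone 644 (243 higher, 401 lower) passed with the replicate block and 954 (393 higher, 561 lower) without it. Against a fold of 1.5 with glmTreat 519 (198 higher, 321 lower) passed. Leaving out 1 library gave 1488 to 2337, and leaving out a replicate number 959 to 1491 (411 to 731 higher, 548 to 837 lower); with 1 library out the counts were 685 to 1111 higher and 803 to 1226 lower.

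The difference from 3D passed for 243 genes (99 above 0, 144 below 0), and for 0 without the replicate block, with all groups or with the 4 groups alone. DESeq2 called 1023 (435 above 0, 588 below), all 18 libraries 29 (3 and 26), the 4 groups alone with the block 24 (11 and 13), and glmTreat 3 (3 and 0). Above 0, the stricter filter gave 160, no filter 177 and the deposited log2 CPM 157. Leaving out 1 library gave 35 to 724 (13 to 197 above 0, 22 to 527 below), and leaving out a replicate number 1 to 3 (1 to 3 above 0, 0 below). The cause of these shifts was not tested.

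Of the 197 named genes none that passed changed sign under any alternative; 59 lost the call without the block and 72 with the 2 groups alone and the block. Of the 34 named genes whose difference from 3D passed, 34 lost the call without the block and 26 with all 18 libraries. With the 4 groups alone and the block 23 lost it, and under RLE scaling 5. Counts divided by transcript numbers of the files' own annotation were not run, because the files give no such numbers. Depth cannot be set beside single counts, since reads appear to be counted more than once. Precision rests on 3 libraries in each group compared, with the spread estimated from all 17 libraries in the fit.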
